A study of Mus musculus with 6 samples.

Results

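Expression of 32 genes of fatty acid and glycerolipid synthesis was examined in LD-1, a mouse cholangiocarcinoma line, that is, a line of bile duct cancer cells. The 32 were chosen by gene symbol from a table of 28212 genes, and each symbol matched 1 row. They were compared between 3 libraries of cells stimulated with HGF (hepatocyte growth factor, the ligand of the Met receptor) and 3 control libraries. All 6 libraries are poly(A) RNA of this 1 line, and the labels name its source both as a cell line and as cholangiocarcinoma tissue. Dose and duration of HGF are not in the labels. Nor do they state whether replicates came from separate cultures, so a p-value here reflects library-to-library spread that may be technical. The study asked how HGF alters expression in cholangiocarcinoma cells.

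Fatty acids are built in the cytosol from acetyl-CoA, which is carboxylated to malonyl-CoA and condensed by fatty acid synthase into palmitate with NADPH as the reductant. Elongases and desaturases then turn palmitate into longer and unsaturated chains, acyl-CoA synthetases activate them, and a chain of acyltransferases and phosphatases joins them to a glycerol backbone to make phospholipids and triglycerides. In liver, many genes of this pathway are driven by the transcription factor SREBP1, encoded by Srebf1, and tumour cells often make their own fatty acids for membranes.

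Total counts per library were 64230550 to 65574817 with HGF and 57073866 to 66302502 in controls. On average 1108.5 genes in a library carried exactly 4 counts, while 527.3 carried 3 and 306 carried 5. Counts of 1 and 2 were carried by 814.7 and 701.2 genes, so no fixed weight of 4 holds for all reads. Many sequenced pairs may still weigh 4 counts, with fewer independent molecules than the totals show. Below, levels are FPKM, scaled by the authors for gene length and library size, and each log2 fold change (HGF minus control, ± SE) comes from a count model with TMM scaling. With library totals in place of TMM, the median log2 fold change of all tested genes was -0.125 in place of -0.025. FPKM carries that lower baseline, so small rises in the fit can look flat in FPKM. Among bile duct markers, Krt8, Krt18 and Spp1 had the highest levels (the 11 measured summed to 1407 to 1417 FPKM with HGF and 753.3 to 783.8 in controls), but Krt7 was at 0.0335 to 0.123 FPKM and Cdh1 at 0.0334 to 0.263. The summed FPKM of 10 hepatocyte markers was 10.45 to 17.06 with HGF and 2.158 to 2.469 in controls. In the test given below, 7 of 10 were higher, against 19.1% of all tested genes. None was at 0 in all 6 libraries, but Fgb was at 0 in all 3 controls, with 75, 115 and 139 counts with HGF. Of 9 adipocyte markers, 7 were measured and summed to 3.752 to 4.146 FPKM with HGF and 2.782 to 3.700 in controls, mostly Lipe, and 8 fibroblast markers summed to 3.835 to 4.054 FPKM with HGF and 2.233 to 2.634 in controls. Adipoq was listed at 0 in all libraries except HGF 1 (0.0540 FPKM). Control 3 stood apart: its 10 skeletal muscle markers summed to 248.7 FPKM against 2.167 to 3.803 in the other libraries. Its 9 measured macrophage markers summed to 118.6 FPKM, against 63.8 to 67.77 with HGF and 40.16 and 44.31 in Controls 1 and 2. By the same test, 1 of 8 macrophage markers rose, Cd68 (log2 0.89 ± 0.06, adjusted p = 1.47e-05), and 1 fell. Of 6 fibroblast markers tested, 4 rose and 0 fell, against 19.1% of all tested genes higher. Values without Control 3 are given beside the member calls and the counts of single lipid gene lists that it changes.

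With HGF, Acaca and Fasn, which make palmitate, and all 4 desaturases rose, while Gpam, Agpat2, Agpat3 and Dgat1, which attach fatty acids to glycerol, fell. All 32 members passed the filter on low counts and were tested. At an adjusted p of 0.05 in the quasi-likelihood test of edgeR, with Benjamini-Hochberg correction across 17322 genes, 14 rose and 8 fell, and 10 did not pass. The 22 calls are 68.8% of the members, against 38.5% of all tested genes (19.1% higher and 19.3% lower). Calls are more frequent at high levels: among genes with a mean FPKM of at least 1, 48.1% were called (24.2% higher and 23.9% lower). Of the 29 members at that level, 22 were called, 14 higher and 8 lower. The 8 falls thus lie near the share of all genes at that level that fell. With library totals only, 11 members were called higher and 9 lower, against 13.6% of all tested genes higher and 28.5% lower (42.2% in all). Without Control 3, 12 members rose and 7 fell, against 17.0% and 16.0% of genes (33.0% in all). The median log2 fold change was 0.19 over the members and -0.025 over all tested genes. Of the 22 calls, 17 had an absolute log2 fold change under 0.5, and Pparg was the 1 member that reached 2-fold, against 5.77% of all tested genes. The groups did not overlap in TMM-scaled CPM (counts scaled to equal library size) in 24 of 32 members (15 higher and 9 lower with HGF), against 51.4% of all tested genes (24.9% and 26.5%). RNA of whole cultures cannot tell a change in RNA per cell from a change in the share of cells that carry it.

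**Figure D1:**
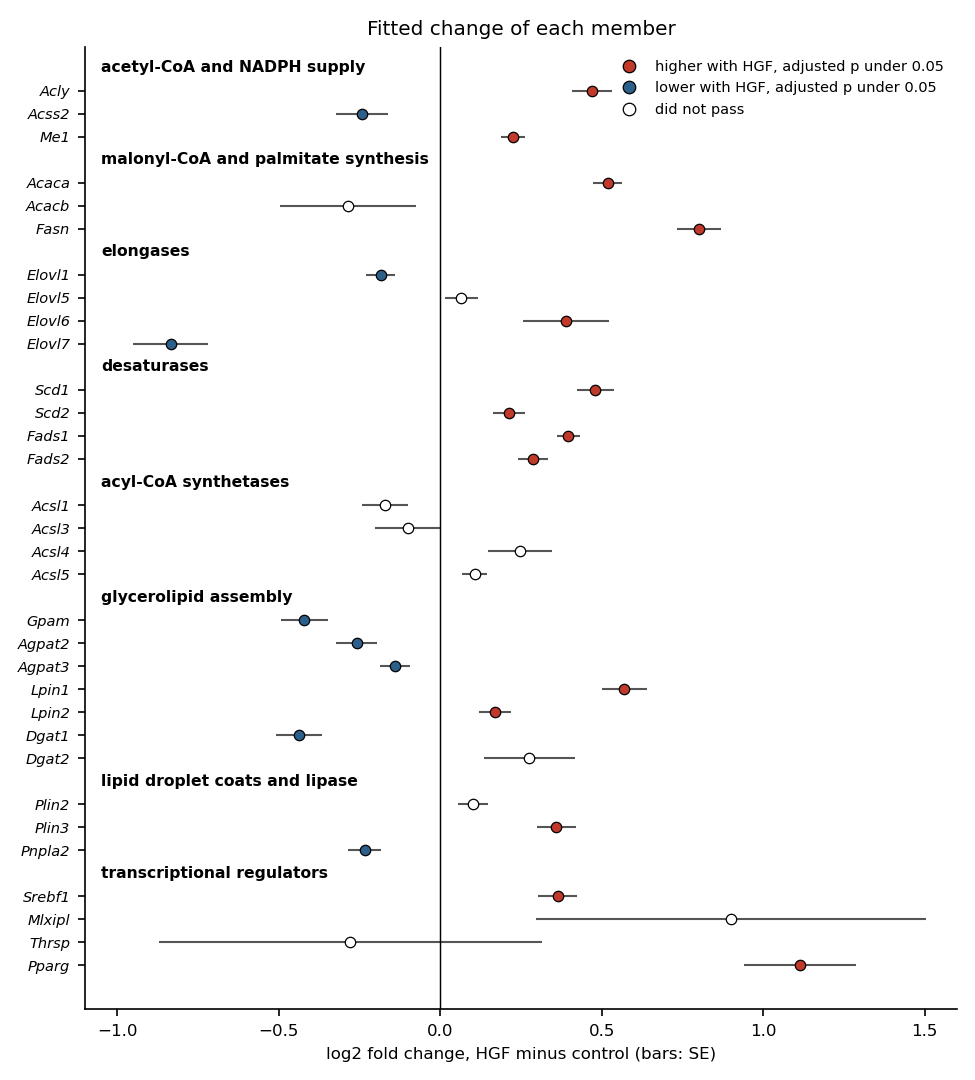
Log2 fold change (HGF minus control) of each of the 32 members, grouped by role, with bars of 1 SE; red points rose and blue points fell at adjusted p 0.05, and white points did not pass. The desaturases lie to the right of 0, the acyl-CoA synthetases lie on both sides of it, and Gpam, Agpat2, Agpat3 and Dgat1 lie to the left.

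Fasn, the synthase that builds palmitate, had the largest rise among the synthesis enzymes. Its FPKM was 64.5, 58.9 and 55.6 in the HGF libraries, against 40.0, 35.4 and 34.3 in controls. The lowest HGF library lay well above the highest control, and the fitted rise was 1.74-fold (log2 0.80 ± 0.07, adjusted p = 4.92e-05). Fasn (ENSMUSG00000025153) lies on chromosome 11 from 120805846 to 120824547 on the minus strand. Positions follow the deposited table. Build mm8 is named in the submitters' processing notes, but 23 of the 32 members carry exactly the coordinates of GENCODE M21 on GRCm38.

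Acaca, the cytosolic acetyl-CoA carboxylase that supplies Fasn with malonyl-CoA, had an FPKM of 5.95, 5.79 and 5.51 with HGF, against 4.36, 4.30 and 4.19 in controls (log2 0.52 ± 0.05, adjusted p = 5.31e-05). The groups were clearly apart, and Acaca was far less abundant than Fasn in every library. Of the 50-base stretches of Acaca transcripts, 30.4% also occur in another annotated gene, chiefly the processed pseudogene Gm5182, so reads could be split between them. Gm5182 had 1047, 864 and 897 counts with HGF, against 742, 635 and 428 in controls, where Acaca had 7269, 7096 and 6866 with HGF, against 5463, 5345 and 4615. Acacb, the carboxylase of the mitochondrial surface and the main form in muscle and heart, was scarce, with an FPKM of 0.243, 0.249 and 0.233 with HGF and 0.260, 0.271 and 0.412 in controls. Its high control was Control 3, the library with muscle markers, and the cause of that high value was not tested. The log2 fold change of Acacb was -0.29 ± 0.21 (adjusted p = 0.325) with Control 3 and -0.03 (adjusted p = 0.899) without it. Acaca therefore made up 95.96% ± 0.0980 (SD, n = 3) of the summed carboxylase FPKM with HGF and 93.16% ± 1.84 (SD, n = 3) in controls, a difference of 2.80 points that was 1.74 without Control 3.

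Of the 3 enzymes that feed the pathway, 2 rose and 1 fell. Acly, which cleaves citrate into cytosolic acetyl-CoA, had an FPKM of 74.3, 69.2 and 67.9 with HGF, against 58.0, 56.3 and 48.7 in controls, and rose by log2 0.47 ± 0.06 (adjusted p = 5.21e-04). Me1, the malic enzyme that yields NADPH, rose by a smaller step that was even across libraries, with 27.0, 27.0 and 27.3 FPKM with HGF, against 24.9, 25.1 and 24.4 in controls (log2 0.23 ± 0.04, adjusted p = 0.00173). Of its 50-base stretches, 22.9% also occur in the processed pseudogenes Gm7049 and Gm7329, which had at most 85 counts in any library. Acss2, which makes acetyl-CoA from acetate, was lower, with 3.28, 3.16 and 2.81 FPKM with HGF and 4.19, 3.98 and 3.53 in controls (log2 -0.24 ± 0.08, adjusted p = 0.0411). The groups of Acss2 did not overlap but lay close, and it missed the threshold in 7 of 15 alternatives, with adjusted p up to 0.145.

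The bases before the start of Fasn, which rose, are shown beside those of Gpam and Elovl7, members of the same pathway that fell. Of the 7 members with a window that fell, these 2 are the only ones that held the motif CACCCCAC described below. The 3 windows are thus not typical of the members that rose or fell. Each line gives the 250 bases before the start in RefSeq on GRCm38.p6, 5′ to 3′ on the gene's own strand, with motif letters in capitals.
Fasn: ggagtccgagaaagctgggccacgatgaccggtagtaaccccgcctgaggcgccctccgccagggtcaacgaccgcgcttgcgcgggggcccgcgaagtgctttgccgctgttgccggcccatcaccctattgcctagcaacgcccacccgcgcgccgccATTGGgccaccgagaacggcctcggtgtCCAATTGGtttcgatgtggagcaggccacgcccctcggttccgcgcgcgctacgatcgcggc
Gpam: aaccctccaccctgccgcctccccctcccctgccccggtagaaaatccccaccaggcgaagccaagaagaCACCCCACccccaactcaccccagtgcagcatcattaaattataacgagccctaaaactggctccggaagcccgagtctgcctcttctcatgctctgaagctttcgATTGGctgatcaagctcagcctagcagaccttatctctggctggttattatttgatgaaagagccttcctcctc
Elovl7: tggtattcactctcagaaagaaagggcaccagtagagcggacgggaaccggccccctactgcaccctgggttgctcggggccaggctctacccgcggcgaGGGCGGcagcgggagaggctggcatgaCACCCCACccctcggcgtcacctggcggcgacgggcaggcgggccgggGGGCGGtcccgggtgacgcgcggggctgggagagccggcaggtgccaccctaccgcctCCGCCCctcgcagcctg
The windows are chr11:120824548-120824797 (minus strand) for Fasn, chr19:55127239-55127488 (minus strand) for Gpam, the more upstream of its 2 starts in the table, and chr13:108214154-108214403 (plus strand) for Elovl7. Capitals mark CCAAT, the box bound by NF-Y, GGGCGG, the GC box bound by Sp1, and CACCCCAC, the core of the sterol element first described in the LDL receptor gene, on either strand, and CACGTG, the E-box, was also searched. Fasn held 3 CCAAT matches, at -90 to -86, -62 to -58 and -59 to -55 counted from the start, the last 2 overlapping on opposite strands, and none of the other motifs. Gpam held CCAAT at -74 to -70 and CACCCCAC at -180 to -173, and Elovl7 held CACCCCAC at -123 to -116 and 3 GC boxes. Over all 32851 windows of this length in the table, CCAAT occurred in 33.8%, the GC box in 32.7%, the E-box in 6.02% and CACCCCAC in 2.58%. Of the 38 windows of members, 19 held CCAAT, 21 the GC box, 3 the E-box and 3 CACCCCAC. Windows were matched for 27 of the 32 members, some with several starts, and a member was counted if any of its windows held the letters. Counts by member are therefore not on the scale of the percentages by window. CCAAT occurred in 6 of 11 matched members that rose and 3 of 7 that fell, the GC box in 7 of 11 and 6 of 7, the E-box in 1 of 11 and 0 of 7, and CACCCCAC in 0 of 11 and 2 of 7. Of the 9 matched members without a call, 8 held CCAAT, 4 the GC box, 2 the E-box and 1 CACCCCAC. A match is a run of letters, not a bound site.

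All 4 desaturases rose. Scd1 and Scd2 are stearoyl-CoA desaturases, which make oleate, and Scd2 was the most abundant member of all. Scd1 had an FPKM of 60.7, 56.6 and 54.4 with HGF, against 45.8, 45.7 and 40.0 in controls (log2 0.48 ± 0.06, adjusted p = 3.09e-04), with no overlap. Scd2 had 263, 247 and 243 with HGF and 244, 232 and 218 in controls (log2 0.21 ± 0.05, adjusted p = 0.00801). In FPKM the lowest HGF library of Scd2 lay just under the highest control, and with library totals only it missed the threshold (log2 0.11, adjusted p = 0.0742). Over 15 alternatives, Scd2 kept its call in 11, with adjusted p up to 0.221. The share of Scd1 in the sum of both was 18.56% ± 0.241 with HGF and 15.92% ± 0.455 in controls (SD, n = 3 each), a difference of 2.64 points that held in every library (two-sided exact permutation p = 0.1, the smallest that 3 against 3 can give). The 2 genes lie on chromosome 19 with 87590 bases between them, Scd2 (ENSMUSG00000025203) at 44293674 to 44306864 and Scd1 (ENSMUSG00000037071) at 44394455 to 44407709. Of the 50-base stretches of Scd1, 4.56% recur in other genes, among them Scd2 and Scd3.

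Fads1 and Fads2 carry out the desaturation steps of polyunsaturated fatty acid synthesis. Fads1 was very even within each group, with 40.2, 40.3 and 40.0 FPKM with HGF, against 32.6, 32.9 and 32.4 in controls (log2 0.40 ± 0.03, adjusted p = 5.32e-05). Fads2 had 38.8, 39.5 and 39.1 with HGF, against 36.0, 34.5 and 32.3 in controls (log2 0.29 ± 0.05, adjusted p = 0.00127). Both are clustered on chromosome 19, 81141 bases apart. Fads3, a related gene of the same cluster and not a member, went the other way (22.1 ± 0.622 FPKM with HGF and 33.4 ± 1.03 in controls, SD, n = 3 each, log2 -0.50 ± 0.05, adjusted p = 6.51e-05).

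The 4 elongases went in different directions. Elovl7, which extends long saturated chains, fell the most of all members, with 1.39, 1.14 and 1.48 FPKM with HGF, against 2.54, 2.53 and 2.58 in controls (log2 -0.83 ± 0.12, adjusted p = 6.48e-04). Elovl1, which makes very long saturated chains, fell less, with 32.3, 32.5 and 30.1 FPKM with HGF, against 39.0, 38.4 and 37.9 in controls (log2 -0.18 ± 0.05, adjusted p = 0.0115). Both pairs of groups were apart. Elovl6, which takes palmitate to stearate, had 6.69, 7.49 and 9.72 FPKM with HGF and 5.74, 7.01 and 6.74 in controls. HGF 3 alone lay far above the controls, and the groups overlapped in FPKM. Its fitted rise (log2 0.39 ± 0.13, adjusted p = 0.0454) missed the threshold in 10 of 15 alternatives, among them without HGF 3 (log2 0.24, adjusted p = 0.107) and without Control 3 (log2 0.43, adjusted p = 0.0683). Elovl5, which extends polyunsaturated chains, had 32.8, 33.3 and 33.0 FPKM with HGF and 35.8, 31.955 and 33.2 in controls, and did not pass (log2 0.07 ± 0.05, adjusted p = 0.348). Its sign turned with library totals only (log2 -0.03).

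**Figure D2:**
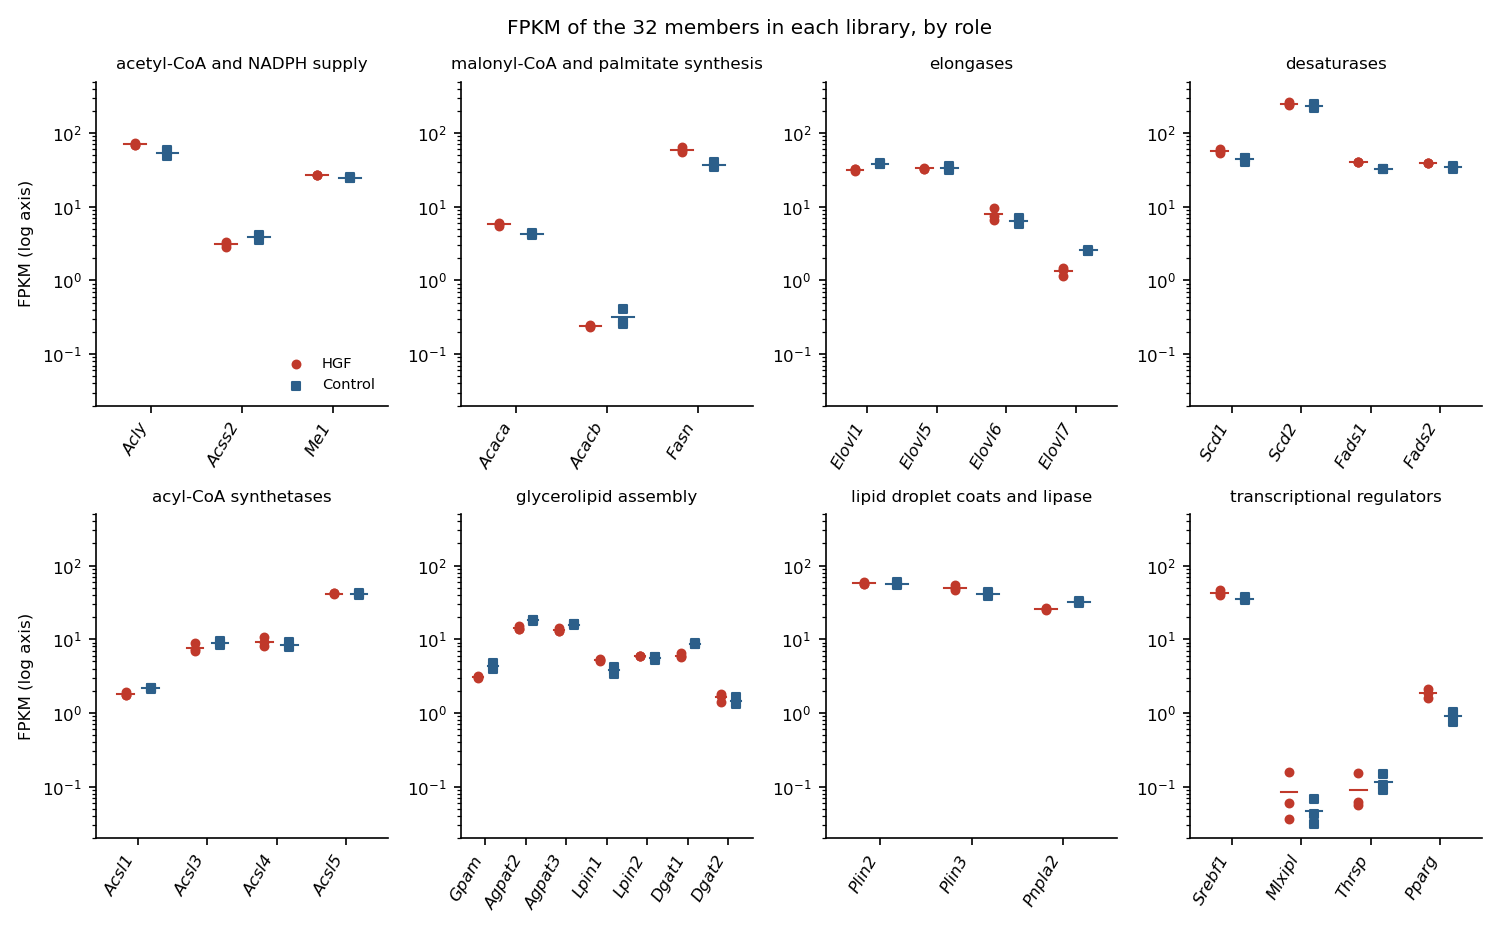
FPKM on a log axis of each member in each library, in 1 panel per role, with HGF libraries as red circles left of control libraries as blue squares and short lines at the group means. Scd2 is the most abundant member (251 FPKM with HGF and 231 in controls on average), and Mlxipl and Thrsp lie near the bottom of the axis in both groups.

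None of the 4 acyl-CoA synthetases, which activate fatty acids for use, passed the test. Acsl5 was the most abundant, with 41.8, 40.7 and 41.8 FPKM with HGF and 42.3, 41.5 and 39.5 in controls (log2 0.11 ± 0.04, adjusted p = 0.0534). Acsl4, which prefers arachidonate, had 8.12, 9.03 and 10.7 with HGF and 8.14, 9.09 and 7.90 in controls (log2 0.25 ± 0.10, adjusted p = 0.0818). HGF 3 was the highest HGF library, as it was for Acsl3, with 6.87, 7.35 and 8.92 FPKM with HGF and 8.30, 8.80 and 9.40 in controls (log2 -0.10 ± 0.10, adjusted p = 0.470). Acsl1, a form abundant in liver and fat, had 1.73, 1.75 and 1.90 with HGF and 2.20, 2.09 and 2.17 in controls, which did not overlap, and a log2 fold change of -0.17 ± 0.07 (adjusted p = 0.0911). With library totals only it passed as lower (log2 -0.27, adjusted p = 0.0140). Acsl5 passed as higher with DESeq2 (log2 0.13, adjusted p = 0.0110), as did Acsl4 (log2 0.27, adjusted p = 0.0185), so the absence of calls among the synthetases depends on the method. The 4 together summed to 60.2 ± 2.72 FPKM with HGF and 60.5 ± 1.37 in controls (SD, n = 3 each).

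Of the 7 genes of glycerolipid assembly, 4 acyltransferases fell, both lipins rose and Dgat2 did not pass. Gpam, the mitochondrial enzyme of the first acyl transfer to glycerol phosphate, had 3.05, 2.97 and 3.14 FPKM with HGF, against 4.73, 4.38 and 4.002 in controls (log2 -0.42 ± 0.07, adjusted p = 0.00223), with no overlap. Agpat2 and Agpat3 add the second chain. Agpat2 had 15.1, 13.6 and 13.6 FPKM with HGF, against 18.4, 17.5 and 18.2 in controls (log2 -0.26 ± 0.06, adjusted p = 0.0113), and missed the threshold without HGF 2 (log2 -0.23, adjusted p = 0.0670). Agpat3 had 14.3, 13.1 and 12.9 FPKM with HGF, against 15.96, 15.9 and 15.7 in controls (log2 -0.14 ± 0.05, adjusted p = 0.0446), and missed it in 8 of 15 alternatives, among them without Control 3 (adjusted p = 0.0880). Gpam (ENSMUSG00000024978) lies at 55067268 to 55127216 on chromosome 19, and Acsl5, which did not pass, lies 124721 bases away.

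Lpin1 and Lpin2 encode lipins, the phosphatases that turn phosphatidate into diacylglycerol. Lpin1 had 5.41, 5.12 and 5.18 FPKM with HGF, against 3.77, 4.14 and 3.38 in controls, and rose 1.49-fold (log2 0.57 ± 0.07, adjusted p = 3.43e-04). Lpin2 had 5.84, 5.91 and 5.84 with HGF and 5.75, 5.78 and 5.18 in controls, a much smaller step (log2 0.17 ± 0.05, adjusted p = 0.0264). Control 3 was its low library, and without it Lpin2 missed the threshold (log2 0.13, adjusted p = 0.0825), as it also did with library totals only (log2 0.07, adjusted p = 0.300). Over 15 alternatives, Lpin2 kept its call in 8, with adjusted p up to 0.450. The share of Lpin1 in the sum of both was 47.16% ± 0.853 with HGF and 40.30% ± 1.25 in controls (SD, n = 3 each, two-sided exact permutation p = 0.1, the smallest possible).

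Dgat1 and Dgat2 encode unrelated enzymes of the last step of triglyceride synthesis. Dgat1 had 5.71, 6.41 and 5.85 FPKM with HGF, against 8.59, 8.91 and 8.53 in controls (log2 -0.44 ± 0.07, adjusted p = 0.00144), and every HGF library lay below every control. Dgat2 was scarcer and overlapped, with 1.81, 1.40 and 1.70 with HGF and 1.38, 1.62 and 1.34 in controls (log2 0.28 ± 0.14, adjusted p = 0.159). Dgat1 therefore took 78.49% ± 3.19 of the summed FPKM with HGF and 85.75% ± 0.981 in controls (SD, n = 3 each, two-sided exact permutation p = 0.1, the smallest possible), and the sum itself was 7.63 ± 0.159 with HGF and 10.1 ± 0.359 in controls.

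**Figure D3:**
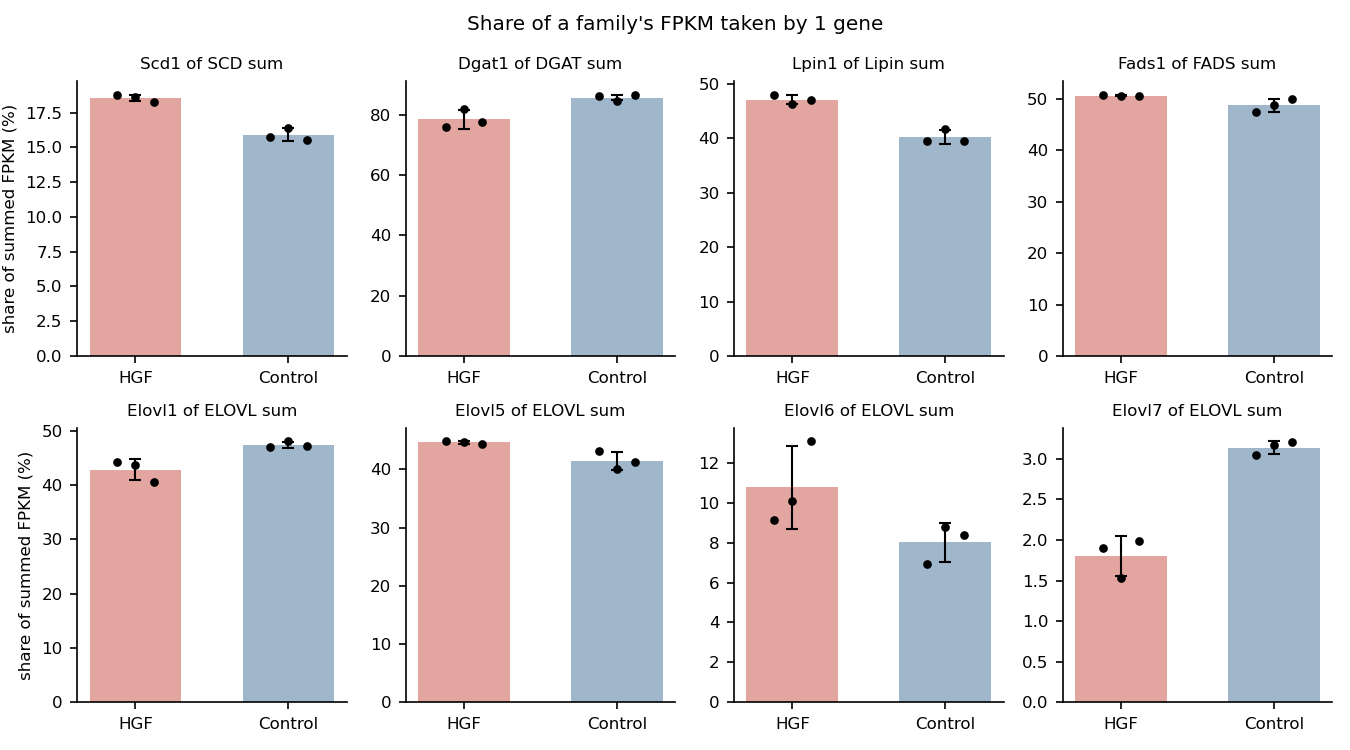
Share of a family's summed FPKM taken by 1 gene, in percent, with HGF left of control; bars are means of 3 libraries, error bars SD and dots single libraries, and each axis starts at 0. Scd1, Lpin1, Fads1, Elovl5 and Elovl6 took a larger share in every HGF library than in any control, and Dgat1, Elovl1 and Elovl7 a smaller one.

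Over the elongases the summed FPKM was 73.96 ± 0.676 with HGF and 81.17 ± 1.70 in controls, and Elovl7 took 1.81% ± 0.246 of it with HGF and 3.14% ± 0.0794 in controls (SD, n = 3 each). Elovl6 took 10.76% ± 2.06 with HGF and 8.02% ± 0.978 in controls, a difference of 2.75 points that was 1.59 without HGF 3. For both, the shares did not overlap between groups (two-sided exact permutation p = 0.1, the smallest possible). Among 13 shares compared over the 7 families, 10 were at that smallest p, which means only that the groups did not overlap. Of all tested genes, 51.4% did not overlap in TMM-scaled CPM, a measure of single genes and not of shares. Shares of the same family depend on each other, and no share can pass 0.05 with 3 libraries a group.

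Genes of the lipid droplet gave 1 rise, 1 fall and 1 without a call. Plin3, a coat protein of droplets that also resides in the cytosol, had 54.0, 49.7 and 46.4 FPKM with HGF, against 44.0, 41.9 and 39.1 in controls (log2 0.36 ± 0.06, adjusted p = 0.00187). Plin2, the coat protein of droplets in most cells, had 59.3, 56.0 and 56.0 with HGF and 60.1, 55.0 and 55.4 in controls, and did not pass (log2 0.10 ± 0.05, adjusted p = 0.126). Pnpla2, the lipase that starts triglyceride breakdown, had 24.97, 26.1 and 25.5 with HGF, against 31.8, 30.9 and 33.4 in controls (log2 -0.23 ± 0.05, adjusted p = 0.00651). Pnpla2 was below every control in all 3 HGF libraries, whereas the groups of Plin2 overlapped.

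Of the 4 regulators, Pparg and Srebf1 rose, and Mlxipl and Thrsp were barely detected. Pparg encodes the nuclear receptor that directs fat cell differentiation and lipid storage. It had 2.10, 1.57 and 1.88 FPKM with HGF, against 0.742, 0.961 and 1.02 in controls, a 2.17-fold rise (log2 1.11 ± 0.17, adjusted p = 0.00117) that was at log2 1.22 (adjusted p = 0.00177) without Control 3. Of the 4 adipocyte markers tested, Lipe rose (log2 0.38 ± 0.07, adjusted p = 0.00298), and Cfd, Plin4 and Fabp4 did not pass (adjusted p = 0.728, 0.541 and 0.728). Pparg (ENSMUSG00000000440) lies on chromosome 6 at 115360951 to 115490399. Srebf1 was abundant, with 46.6, 42.6 and 39.5 FPKM with HGF, against 37.2, 35.3 and 34.4 in controls (log2 0.36 ± 0.06, adjusted p = 0.00159). Its lowest HGF library lay above its highest control. Mlxipl, which encodes the glucose-responsive factor ChREBP, had 65, 15 and 26 counts with HGF and 15, 18 and 25 in controls, so that HGF 1 alone was high (log2 0.90 ± 0.60, adjusted p = 0.278, and log2 0.11 without HGF 1). Thrsp, a lipogenic gene of liver and fat, had 25, 10 and 9 counts with HGF and 18, 15 and 22 in controls (log2 -0.28 ± 0.59, adjusted p = 0.753). Both are expressed in hepatocytes, whose markers were higher with HGF, and the part of these markers in any member's value was not tested.

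Other genes of lipid metabolism, from 8 lists chosen by function, were read against the same fit. Over the 8 lists, 28 of 115 tested genes rose and 34 fell. Together these calls are 53.9%, against 38.5% of all tested genes and 48.1% of those with a mean FPKM of at least 1, and the share of single lists was between 40.0% and 66.7%. In the list of SREBP, LXR and ChREBP regulation, 5 of 18 genes rose and 3 fell. Without HGF 2, 1 fell, and without Control 3, 6 rose and 2 fell. Insig1, a sterol-responsive inhibitor of SREBP processing and itself an SREBP target, had 30.6 ± 0.318 FPKM with HGF and 19.5 ± 1.35 in controls (log2 0.74 ± 0.05, adjusted p = 1.9e-05). Srebf2, the regulator of cholesterol synthesis, had 72.4 ± 4.12 and 52.4 ± 2.85 (log2 0.56 ± 0.05), while Scap, the escort protein of SREBPs, had 7.66 ± 0.458 with HGF and 10.4 ± 0.651 in controls (log2 -0.35 ± 0.06, adjusted p = 0.00239). Of 12 genes of citrate, pyruvate and NADPH supply, 4 rose and 2 fell, and without Control 3, 3 rose and 2 fell. Among them, Me2, the mitochondrial malic enzyme, was at log2 0.46 ± 0.06 and Mdh1, cytosolic malate dehydrogenase, at -0.24 ± 0.04. Of 10 tested genes of the rest of the elongation cycle and other desaturases, 3 rose and 1 fell. The 3 were Hsd17b12 (log2 0.36 ± 0.04), Hacd1 (0.56 ± 0.07) and Tecr (0.18 ± 0.04), which carry out the reduction and dehydration steps after an elongase, and the 1 was Fads3. Tecr missed the threshold with library totals only (log2 0.08, adjusted p = 0.1202).

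Of 22 tested genes of other glycerolipid and phospholipid steps, 5 rose and 6 fell. The rises were 3 without HGF 1, without HGF 2 or without Control 2, and also with library totals only. Lpcat4, an acyltransferase with the smallest p of the list, rose (log2 0.46 ± 0.05, adjusted p = 1.24e-04). Agpat1, in the same step as Agpat2, fell (44.39 ± 1.015 FPKM with HGF and 59.35 ± 1.84 in controls, log2 -0.32 ± 0.04, adjusted p = 5.39e-04). Of the same gene family, Agpat4 rose slightly (log2 0.13 ± 0.04, adjusted p = 0.0301) and Agpat5 did not pass (log2 0.10 ± 0.06, adjusted p = 0.234). Lpin3, the third lipin, rose like Lpin1 and Lpin2 from a low level (1.41 ± 0.447 with HGF and 0.438 ± 0.0507 in controls, log2 1.77 ± 0.23). Ptdss1, a phosphatidylserine synthase, fell by 0.42 on the log2 scale (SE 0.05). Among 9 tested genes of other droplet and lipolysis proteins, 3 rose and 2 fell. Bscl2, which encodes the droplet biogenesis protein seipin, had 5.44 ± 0.207 FPKM with HGF and 8.86 ± 0.294 in controls (log2 -0.61 ± 0.06, adjusted p = 7.975e-05), and Fitm2, another droplet biogenesis gene, fell by 0.41 (SE 0.07). Soat1, which makes cholesteryl esters, rose by log2 0.38 ± 0.04 (adjusted p = 1.715e-04), as did Lipe, the hormone-sensitive lipase, with 3.28 ± 0.144 FPKM with HGF and 2.69 ± 0.116 in controls (SD, n = 3 each).

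Of 10 other acyl-CoA synthetases and thioesterases tested, 3 rose and 3 fell. Among the rises were Acsbg1 (15.98 ± 1.355 FPKM with HGF and 7.66 ± 0.147 in controls, log2 1.16 ± 0.07, adjusted p = 7.22e-06) and Acsl6 (4.90 ± 0.141 and 2.70 ± 0.0959, log2 0.96 ± 0.06), which is the family's brain form. Among the falls was the thioesterase Them4 (1.08 ± 0.205 and 2.08 ± 0.126, log2 -0.85 ± 0.15, adjusted p = 0.00203). Of 13 tested genes of fatty acid uptake and transport, 4 rose and 4 fell. The falls were 1 without HGF 2, and 2 without HGF 1 or without Control 3. The rises were 5 without Control 3. The transporters Slc27a1 and Slc27a4 moved oppositely, at log2 0.69 ± 0.05 and -0.86 ± 0.06, and Mfsd2a, a transporter of lysophosphatidylcholine, rose to 2.62 ± 0.160 FPKM with HGF, against 0.884 ± 0.119 in controls.

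Fatty acid oxidation genes were mostly lower. Of 21 tested, 13 fell, with a median log2 fold change of -0.217, against 19.3% of all tested genes that fell. Cpt1a, the carnitine transferase that admits fatty acids to mitochondria and is inhibited by malonyl-CoA, had 17.0 ± 0.602 FPKM with HGF and 26.3 ± 1.20 in controls (log2 -0.53 ± 0.04, adjusted p = 4.27e-05). Acadvl, the dehydrogenase of very long chains, had 41.9 ± 2.75 and 61.6 ± 3.68 (log2 -0.46 ± 0.06), and Etfdh, which passes their electrons to ubiquinone, 6.07 ± 0.222 and 9.96 ± 0.335 (log2 -0.62 ± 0.05). Without Control 3, 10 fell.

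**Figure D4:**
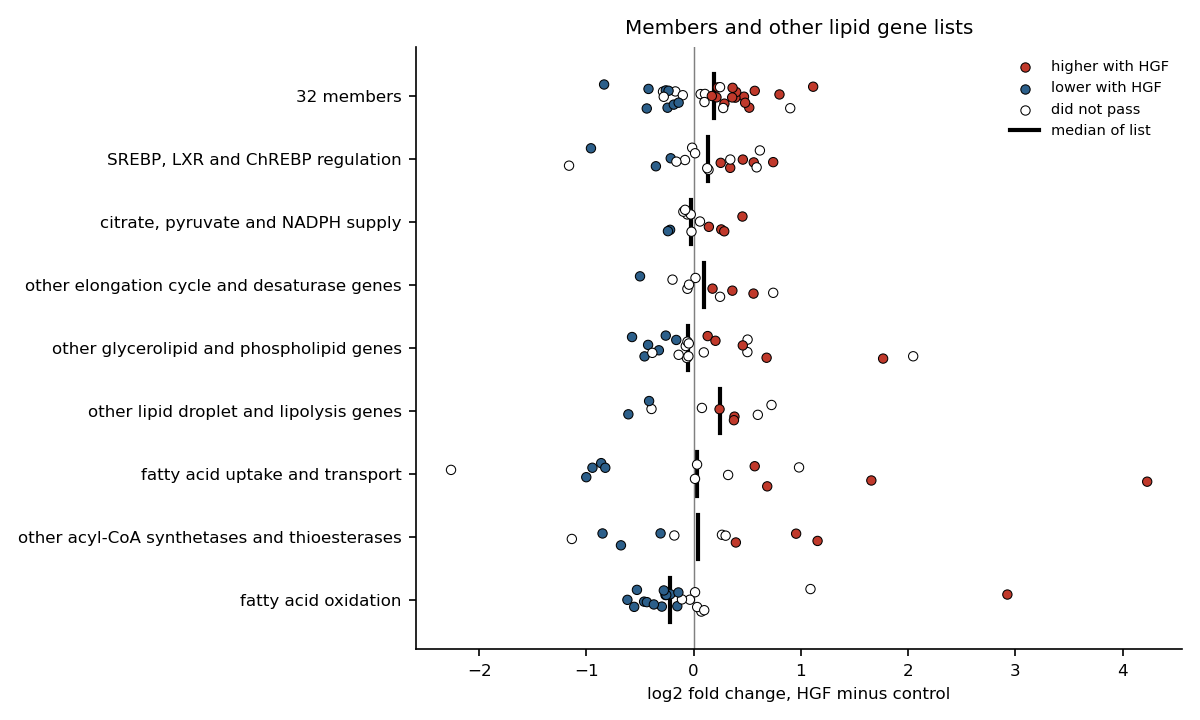
Log2 fold change (HGF minus control) of every tested gene of the members and of 8 related lists; each point is a gene, red if it rose, blue if it fell and white if it did not pass, and black bars are list medians. The members have their median at 0.19 and fatty acid oxidation genes theirs at -0.217.

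The members lie on 17 chromosomes, with 6 on chromosome 19 and 4 on chromosome 11 (Acly, Acaca, Fasn and Srebf1). For 30 of 32 members, under 5 percent of 50-base stretches recur in other annotated genes, and Acaca and Me1 are the exceptions given above. In 12 of 32, exons share bases with another annotated gene, at most 9.91% of a member's exon bases (Acsl1 with Gm45244 on the opposite strand), and whether counting used strand is not given in the sources used here.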

How the data were processed

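Poly(A) RNA of 6 libraries was sequenced from both ends on a NovaSeq instrument, per the labels' protocols, which also mention adipose material. The authors deposited 1 table holding whole-number counts and FPKM values by gene and library, as its file headers show. Build mm8 and the tools StringTie 1.3.0, HISAT2 2.0 and Bowtie 0.12.2 appear in the submitters' processing notes. Which tool did what, the annotation and the strand setting: not given in the sources used here. Columns were matched to samples by the labels, and all 12 per-sample columns were used.

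After filterByExpr and TMM scaling (factors 0.963 to 0.968 with HGF and 1.03 to 1.04 in controls), the deposited counts of 17322 genes entered a two-sided edgeR quasi-likelihood test (edgeR 4.0.16, R 4.3.3). Benjamini-Hochberg adjustment covered all of them. The SE is the log2 fold change divided by the square root of F. The common biological coefficient of variation was 0.155. FPKM values are used for levels and family shares, which were compared by exact permutation over libraries. Their precision rests on 3 libraries a group. No library was a copy of another: within a group, pairs of libraries had a chi-square of 3.04 to 7.74 for each degree of freedom. This chi-square used counts divided by 4 and rounded, without the lowest genes, and that weight does not hold for all reads. Alternatives used DESeq2 1.42.0, other scalings, no filter, a replicate block, counts divided by 4, limma 3.58.1 on log2(FPKM + 1), where a fold change understates that of low genes, and each library left out.

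Members and lists were chosen with earlier results of these data known. All 32 members are named. In each related list, up to 4 called genes, ranked by p, could be named, and some were omitted for length. Agpat4 and Agpat5 were added after their values were seen. The result of 1 gene of the fatty acid oxidation list is not reported here. Promoter windows are from RefSeq (GRCm38.p6), and shared 50-base stretches and exon overlaps were computed from GENCODE M21.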

Additional observations from a re-analysis of the deposited data

How the results depend on the processing

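Each member was refitted under up to 15 alternatives. Of the 22 called members, 16 kept call and direction in every one. The exceptions are Acss2, Elovl6, Scd2, Agpat2, Agpat3 and Lpin2. Among the others, Acsl1, Acsl4, Acsl5 and Plin2 passed the threshold in 2 to 4 alternatives. Elovl5, which had no call, turned sign to -0.0345 with library totals only, -0.0272 with limma on log2(FPKM + 1), with or without a filter, and -0.0279 on log2(FPKM + 0.1), and the cause was not tested. Members called higher ranged over 11 to 16 and members called lower over 5 to 9, where 19.9% to 53.6% of all tested genes were called. With each library left out they ranged over 12 to 15 and 5 to 8, with 5 lower without HGF 2. Genes called over the whole table ranged over 4893 to 6228 when a library was left out. Oxidation genes called lower ranged over 10 to 15. Of the 32 nameable related genes, 31 kept their call and direction in every alternative, Tecr being the exception. Deviations from the group mean were nearly uncorrelated between same-numbered libraries (0.059, -0.03 and 0.038) and between the others (-0.088 to 0.064). With 3 libraries a group, this cannot show whether same-numbered libraries shared a culture, which the labels do not state. With the replicate block, 6846 genes (39.5%) were called, with 16 members higher and 8 lower, Acsl5 and Plin2 being added. With 3 libraries a group, Acacb, Mlxipl and Thrsp are limited by their low counts.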
